A study of Mus musculus with 28 samples.

Results

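The question addressed here was whether estradiol plus progesterone (E+P) changed the same genes, and by the same amount, in the GFP+ and the tdTomato+ luminal cells of the same mouse. It was answered with 14 of the 28 libraries of the study, the GFP+ and the tdTomato+ luminal library of each of 7 mice. For each gene, the within-mouse difference between GFP+ and tdTomato+ luminal cells was compared between 3 E+P mice and 4 untreated mice. Values below are listed by mouse, untreated mice 1 to 4 and E+P mice 1 to 3, in the same order for both subsets.

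All mice were *PdgfrαCre R26mTmG* animals on C57BL/6, in which every cell starts with membrane tdTomato and changes permanently to GFP once Cre, driven by *Pdgfra* regulatory sequence, has been active in it or in an ancestor. Cre is constitutive in this line, so GFP records past *Pdgfra* activity at any age, and a tdTomato+ luminal cell is one without such a record. Luminal cells were sorted from individual adult female glands, adult being 10 to 12 weeks for this line in the methods. The E+P mice carried hormone pellets and the untreated mice did not. The methods give the pellet content for wild-type mice only, as 0.14 mg of estradiol with 14 mg of progesterone, left in place over 14 days.

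The luminal layer of the mammary gland holds hormone-sensing cells, which carry the estrogen and progesterone receptors, and receptor-negative progenitors, which give rise to milk-secreting alveoli. Progesterone acts on the first kind, which releases paracrine signals such as RANKL, and much of the resulting cell division takes place in neighbouring cells. In bulk libraries such as these, fewer cells of a type and less RNA per cell cannot be told apart.

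The libraries held between 8623383 and 24583803 counted reads, at which 3 reads, the floor for counting error, equal 0.122 to 0.348 CPM (reads scaled to the library total after TMM). As a check of the labels, 11 luminal keratin and adhesion markers summed to between 6196 and 9293 CPM in all 14 libraries, and 12 basal markers to at most 183 CPM. The subsets were unlike before any hormone was given. Hormone-sensing markers (12 genes, *Prlr* the most abundant) summed to 5681, 7863, 6065 and 5319 CPM in untreated tdTomato+ cells and to 1936, 1115, 2821 and 848 CPM in the GFP+ cells of the same mice. Progenitor markers (13 genes, *Mfge8* the most abundant) summed to 2237, 931, 1701 and 2746 CPM in tdTomato+ and to 7254, 7221, 4840 and 7425 CPM in GFP+ cells. After E+P, hormone-sensing markers stood at 2966, 4654 and 4687 CPM in tdTomato+ and at 656, 595 and 570 CPM in GFP+ cells, and progenitor markers at 1365, 1177 and 925 CPM against 3527, 3652 and 3967 CPM. Both sums were lower after E+P without overlap, except that the progenitor sums of tdTomato+ cells overlapped. By edgeR, 0 of the 25 markers differed in their response between subsets at the threshold used here (2.88% of all genes). Of the 25 markers, 6 had an unadjusted edgeR p under 0.05, as did 4076 of the 16538 genes tested. DESeq2 called 3 of the markers (1271 of all genes), and edgeR called 5 of the markers without untreated mouse 2 (859 of all genes). Their part in the results below was not tested.

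Markers of other cell types were low or absent. Lymphocyte markers summed to at most 1.48 CPM and macrophage markers to at most 12.7 CPM, while *Adipoq*, *Plin1*, *Cldn5*, *Emcn* and *Adgre1* stayed under 0.5 CPM throughout. The adipocyte sum, from 17.5 to 106 CPM, rested on *Lipe*, and the fibroblast sum lay between 9.63 and 139 CPM. Pericyte markers summed to 108.5 to 221 CPM. Skeletal muscle markers reached 57.8 CPM in the tdTomato+ library of untreated mouse 3 and 44.1 CPM in the GFP+ library of untreated mouse 4, against at most 3.66 CPM elsewhere. The endothelial sum, which rested on *Vwf*, was at 35.8, 41.6 and 53.9 CPM in untreated tdTomato+ libraries 1 to 3, higher in library 4, and at 250.4 to 269.5 CPM in the E+P ones. The share of reads on mitochondrial genes also moved with the groups. It was 6.23 to 9.35% in untreated and 13.7 to 15.9% in E+P GFP+ libraries, and 9.90 to 10.4% and 10.7 to 12.8% in the tdTomato+ libraries. TMM scaling factors were lowest, 0.841 to 0.900, in E+P tdTomato+ cells and lay between 0.982 and 1.13 elsewhere. The part of these measures in the results was not tested.

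E+P had a different effect in the 2 luminal subsets on 477 of 16538 genes tested (2.88%, adjusted p under 0.01, quasi-likelihood test of edgeR, blocked by mouse). For 177 genes (1.07%) the response was more positive in GFP+ cells, and for 300 genes (1.81%) it was more positive in tdTomato+ cells. The difference of responses, the E+P log2 fold change in GFP+ minus that in tdTomato+ cells, had a median size of 1.45 over the called genes (quartiles 1.12 and 2.02) and a median of 0.0122 over all genes. In all 477 called genes the within-mouse differences of the 3 E+P mice lay wholly on one side of those of the 4 untreated mice, as they did in 24.6% of all genes. Within single subsets, E+P changed 2327 genes (14.1%) in tdTomato+ and 985 genes (5.96%) in GFP+ cells, 7 libraries each, in comparisons that share the libraries of the interaction.

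Most of the 300 genes on the tdTomato+ side rose there. Of them 208 rose in tdTomato+ cells without passing the threshold in GFP+ cells, 34 fell in GFP+ cells only by that threshold, 13 rose in tdTomato+ and fell in GFP+ cells, and 38 passed in neither subset alone. A further 6 rose in both and 1 fell in both. Of the 177 on the GFP+ side, 92 fell in tdTomato+ cells without passing in GFP+ cells, 53 rose in GFP+ cells without passing in tdTomato+ cells, 5 rose in GFP+ and fell in tdTomato+ cells, 2 fell in both, 2 rose in both and 23 passed in neither. Genes also changed order. In 87 called genes GFP+ cells held more transcript than tdTomato+ cells in all 4 untreated mice and less in all 3 E+P mice, and in 50 genes the reverse held. The plot of both responses shows the called genes away from the diagonal, which the test itself requires.

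**Figure D1:**
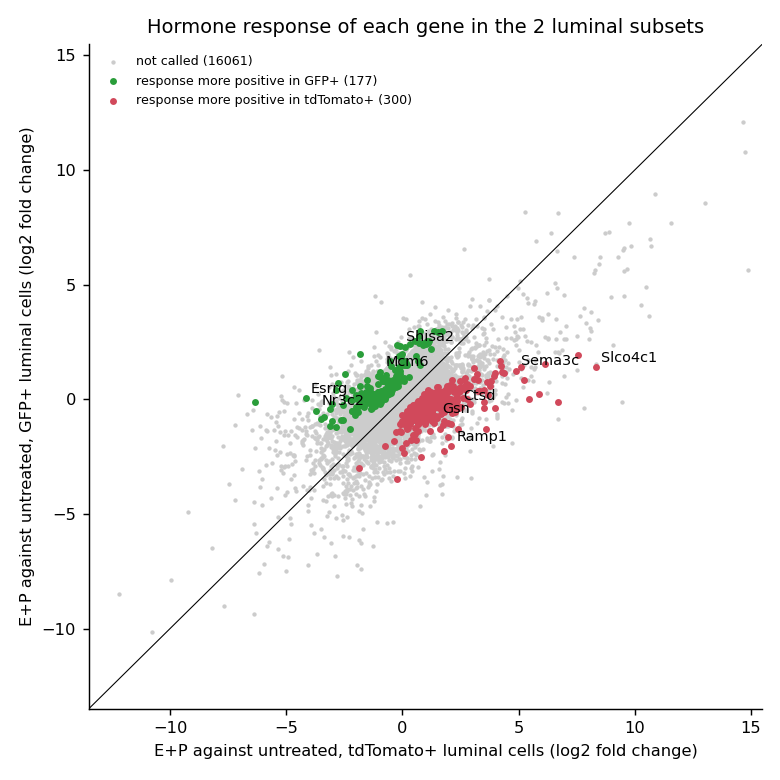
Each point is 1 of 16538 genes, with its E+P log2 fold change in tdTomato+ luminal cells on the x axis and in GFP+ luminal cells on the y axis; the line marks equal responses. The 300 red genes lie below the line, most of them with a tdTomato+ rise that passed the threshold, 208 of these without a GFP+ change that passed, and the 177 green genes lie above it.

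The count depended on single mice. Without E+P mouse 2 the number was 34, without E+P mouse 3 it was 57 and without E+P mouse 1 it was 262. Without untreated mouse 1, 2, 3 or 4 it was 140, 859, 326 or 255. Scaling by library size alone gave 495 genes, of which 55.8% were on the GFP+ side in place of 37.1%, and moved the median over all genes to 0.129. Of 92 called genes followed singly across settings, 17 were called whichever mouse was left out, with 56, 18 and 22 called without E+P mouse 1, 2 and 3 and 39, 90, 69 and 59 without untreated mouse 1, 2, 3 and 4. For a single gene, an exact permutation test of 3 against 4 mice cannot give a two-sided p below 0.0571, so it was not used.

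Of the lists not written after the values here were seen, the cell cycle and DNA replication list had the highest median difference. Those lists were written with earlier results of these data known, so the rank is a description only. In the list of 40 cell cycle genes, the response was more positive in GFP+ cells for all 40 and passed the threshold for 8, with 0 the other way (all genes, 1.07% and 1.81%). The median difference was 1.31, against 0.0122 over all genes. In GFP+ cells 32 of the 40 rose with E+P (3.17% of all genes), and in tdTomato+ cells 5 rose and 1 fell (7.63% and 6.44%). Although few passed there, the median tdTomato+ response of the list was also positive, at 1.31 (all genes, −0.0481). It was smaller than the median response of the list in GFP+ cells. Summed over the list, GFP+ cells went from 479, 454, 1213 and 951 CPM to 4073, 3559 and 3278 CPM, and tdTomato+ cells from 406, 483, 639 and 611 CPM to 1011, 902 and 692 CPM. The E+P GFP+ libraries stood far above all others, and the untreated GFP+ libraries of mice 3 and 4 were the highest without hormones.

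Of the 6 *Mcm* genes on the list, which encode the subunits of the ring-shaped helicase that opens DNA for replication, 5 were called. *Mcm6* (ENSMUSG00000026355.11, GRCm38 chromosome 1, 128331590 to 128359664, minus strand) was at 58.6, 60.3, 95.3 and 79.7 CPM in untreated GFP+ and at 191, 170 and 147 CPM in E+P GFP+ cells. In tdTomato+ cells it went the other way, from 96.3, 113, 107 and 75.0 CPM to 59.2, 52.7 and 40.5 CPM. Neither pair of groups overlapped, and both responses passed the threshold (1.20, adjusted p = 0.00142, and −0.94, adjusted p = 0.00305, edgeR). The difference of responses was 2.17 (SE 0.23, adjusted p = 0.00115, edgeR). *Mcm2* held 13.2, 6.92, 32.2 and 10.7 CPM in untreated and 72.5, 61.1 and 53.4 CPM in E+P GFP+ cells. It stayed between 17.9 and 32.2 CPM in tdTomato+ libraries of either kind. The difference was 2.17 for *Mcm2*, 1.94 for *Mcm4*, 1.46 for *Mcm3* and 1.34 for *Mcm5*. Untreated mouse 3 had the highest untreated GFP+ level of all 5.

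The promoters of *Mcm2*, *Mcm3*, *Mcm5* and *Mcm6*, the called *Mcm* genes matched to a window, are shown. They were taken because all had the more positive response in GFP+ cells. In tdTomato+ cells *Mcm6* fell, while *Mcm2*, *Mcm3* and *Mcm5* gave −0.02, 1.02 and 1.71 without passing (adjusted p = 0.976, 0.0328 and 0.0216, edgeR). The tdTomato+ values of *Mcm3* and *Mcm5* were higher after E+P without overlap. Marked are the letters TTTCCCGC or TTTGGCGC (either strand), which E2F cell cycle factors can bind, in capitals. Each window runs 5′ to 3′ from 250 bases before to 50 bases after the RefSeq start (GRCm38.p6).
Mcm2 (chr6:88898731-88899030, minus strand): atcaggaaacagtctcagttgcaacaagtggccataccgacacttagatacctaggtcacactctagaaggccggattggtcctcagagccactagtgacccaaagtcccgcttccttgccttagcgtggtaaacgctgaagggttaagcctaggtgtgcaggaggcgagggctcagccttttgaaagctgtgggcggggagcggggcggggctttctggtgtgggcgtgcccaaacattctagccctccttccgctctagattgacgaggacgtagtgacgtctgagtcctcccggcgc
Mcm3 (chr1:20820263-20820562, minus strand): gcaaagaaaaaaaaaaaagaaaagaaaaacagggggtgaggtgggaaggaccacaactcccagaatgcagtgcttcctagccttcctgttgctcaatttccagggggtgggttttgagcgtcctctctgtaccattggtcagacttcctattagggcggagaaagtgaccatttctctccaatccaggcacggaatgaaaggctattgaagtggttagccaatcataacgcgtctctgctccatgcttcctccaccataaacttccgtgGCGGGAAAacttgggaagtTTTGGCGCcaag
Mcm5 (chr8:75109259-75109558, plus strand): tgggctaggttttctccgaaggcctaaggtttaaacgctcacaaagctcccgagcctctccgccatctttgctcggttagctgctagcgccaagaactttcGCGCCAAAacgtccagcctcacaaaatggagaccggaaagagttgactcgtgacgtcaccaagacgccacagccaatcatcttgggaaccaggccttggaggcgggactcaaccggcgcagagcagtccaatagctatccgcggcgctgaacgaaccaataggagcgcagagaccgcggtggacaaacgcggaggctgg
Mcm6 (chr1:128359656-128359955, minus strand): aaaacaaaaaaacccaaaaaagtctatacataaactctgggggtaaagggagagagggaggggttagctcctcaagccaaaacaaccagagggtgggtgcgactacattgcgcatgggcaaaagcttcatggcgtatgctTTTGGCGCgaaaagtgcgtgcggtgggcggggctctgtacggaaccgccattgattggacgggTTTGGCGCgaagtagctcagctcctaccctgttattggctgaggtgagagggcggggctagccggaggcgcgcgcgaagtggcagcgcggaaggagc
These letters occurred 2 times in the *Mcm3* window, 1 time in that of *Mcm5* and 2 times in that of *Mcm6*, and were not in the window of *Mcm2*. They were in 1.56% of the 32851 RefSeq promoter windows and were chosen after the called genes had been seen. Among 40 named called genes matched to a window (of 51), they were in 3 of 21 on the GFP+ side and 0 of 19 on the tdTomato+ side. A match describes the letters only.

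*Aurka*, the Aurora A kinase of the mitotic spindle, was at 2.36, 2.01, 5.11 and 1.73 CPM in untreated and at 14.8, 15.7 and 13.3 CPM in E+P GFP+ cells. In tdTomato+ cells it held between 3.61 and 6.54 CPM in all 7 libraries. The difference was 2.68 (SE 0.42, adjusted p = 0.00524, edgeR), and that of *Cenpa*, the histone variant that marks centromeres, was 2.08 (SE 0.28, adjusted p = 0.00301). *Mki67*, the proliferation antigen Ki-67, reached 1428, 1269 and 1218 CPM in E+P GFP+ cells against 303, 263 and 194 CPM in E+P tdTomato+ cells. Without hormones it ranged from 44.7 to 284 CPM in GFP+ and from 16.9 to 102 CPM in tdTomato+ cells. Its difference of 1.44 did not pass the threshold (adjusted p = 0.05001, edgeR), nor did that of *Top2a*, a DNA topoisomerase of dividing cells (1.59, adjusted p = 0.0121). DESeq2 called both (adjusted p = 0.000652 for *Mki67*), and limma-voom called *Top2a* (0.00402).

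*Ccnd1*, the G1 cyclin D1 and a known target of hormone and RANKL signalling, was at 114.5, 59.8, 97.9 and 167.6 CPM in untreated and 61.5, 60.1 and 39.4 CPM in E+P tdTomato+ cells, and at 174, 117, 229 and 289 CPM and then 337, 328 and 306 CPM in GFP+ cells. Neither response passed the threshold alone (adjusted p = 0.0395 and 0.188, edgeR), and their difference of 1.72 did (SE 0.19, adjusted p = 0.00112). The cell cycle list had 2, 1 and 1 calls without E+P mouse 1, 2 and 3, and 3, 13, 8 and 4 without untreated mouse 1, 2, 3 and 4. With DESeq2 it had 18, where DESeq2 called 1271 of all genes. With no mouse block it had 2, and *Mcm2*, *Mcm3*, *Mcm4*, *Mcm5*, *Cenpa* and *Ccnd1* did not pass (adjusted p = 0.0523, 0.0900, 0.0115, 0.306, 0.0137 and 0.0491, edgeR). *Mcm5* did not pass with limma-voom either (0.0123).

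**Figure D2:**
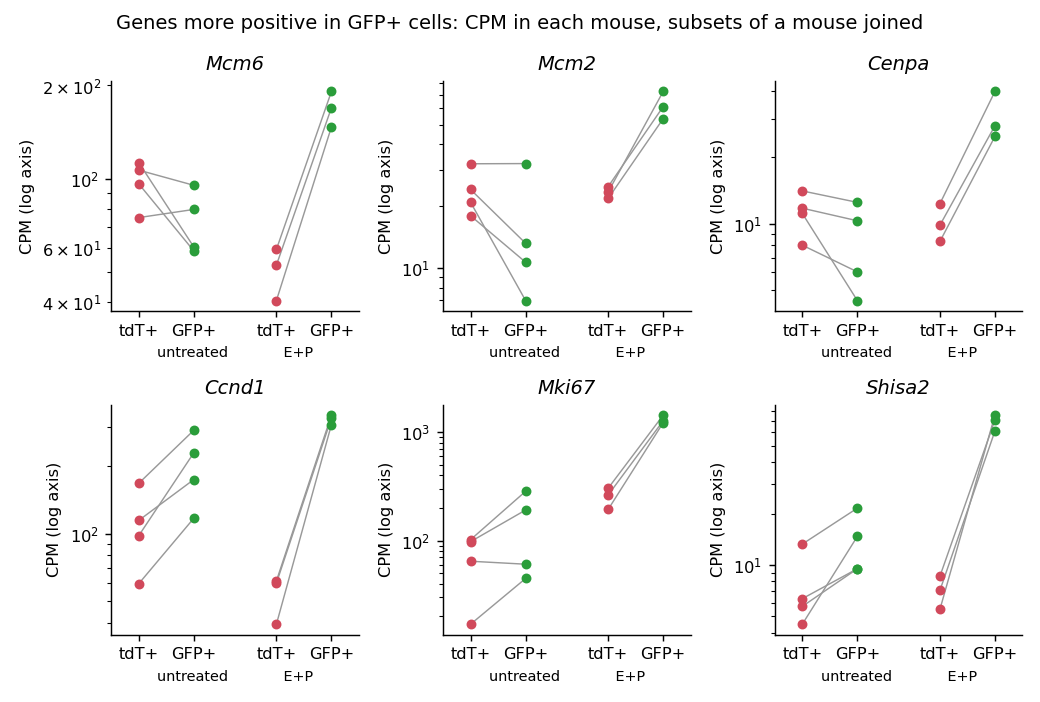
CPM (log axis) of 6 genes in every library, tdTomato+ in red and GFP+ in green, with the subsets of a mouse joined by a line; 4 untreated mice on the left and 3 E+P mice on the right of each panel. *Mcm6* lies at 147 to 191 CPM in E+P GFP+ cells, above all other libraries, and at 40.5 to 59.2 CPM in E+P tdTomato+ cells.

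Apart from division genes, the largest differences on the GFP+ side came from falls in tdTomato+ cells. *Esrrg*, an orphan nuclear receptor related to the estrogen receptors (ENSMUSG00000026610.13, chromosome 1, 187608791 to 188214885, plus strand), was at 33.8, 24.2, 30.9 and 34.4 CPM in untreated and at 0.735, 2.37 and 1.81 CPM in E+P tdTomato+ cells. GFP+ cells held 13.9, 6.37, 14.2 and 11.1 CPM without and 8.33, 13.9 and 13.2 CPM with hormones. tdTomato+ cells held more than GFP+ cells in 4 of 4 untreated mice and less in the 3 E+P mice, with a difference of responses of 4.34 (SE 0.29, adjusted p = 0.000432, edgeR), the largest among the 169 genes of this direction that met the naming rule.

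*Nr3c2*, the mineralocorticoid receptor (ENSMUSG00000031618.13, chromosome 8, 76899442 to 77245012, plus strand), followed the same course. It fell from 77.4, 72.6, 64.4 and 72.5 CPM to 4.59, 7.41 and 4.09 CPM in tdTomato+ cells (−3.73, adjusted p = 5.0e-07, edgeR). In GFP+ cells it was at 31.2, 37.4, 46.5 and 31.4 CPM and then at 19.7, 29.6 and 28.4 CPM (−0.50, adjusted p = 0.115). Without hormones tdTomato+ cells held more of it in 4 of 4 mice, and with hormones less in 3 of 3. *Uba7*, the activating enzyme for the ubiquitin-like ISG15, fell from 18.3 to 22.9 CPM to 1.38 to 3.44 CPM in tdTomato+ cells and stayed between 13.3 and 21.9 CPM in GFP+ cells. *Sp100*, a nuclear body protein, had a difference of 3.31, *Klhl3*, a substrate adaptor of a ubiquitin ligase, of 2.78, *Celf4*, an RNA-binding protein, of 2.67, *Myo5c*, an unconventional myosin of secretory cells, of 2.55 and *Inpp5j*, a phosphoinositide phosphatase, of 2.43, and each fell in tdTomato+ cells. *Klhl3* and *Inpp5j* did not pass without the mouse block (adjusted p = 0.0202 and 0.0308, edgeR), nor *Klhl3* with limma-voom (0.0131).

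*Shisa2*, which encodes a membrane protein of the endoplasmic reticulum, rose in GFP+ cells instead, from 9.50, 9.49, 14.7 and 21.6 CPM to 61.2, 71.0 and 75.8 CPM. It stayed between 4.48 and 13.2 CPM in tdTomato+ cells, and its difference was 2.40 (SE 0.31, adjusted p = 0.00227, and 0.0132 with no mouse block, edgeR). The 2 genes left of this direction differed by 2.44 (*Noxo1*, the organizer of an NADPH oxidase) and 2.41 (*Sidt1*), with falls in tdTomato+ cells that passed (adjusted p = 0.000532 and 0.000409, edgeR) and higher values in GFP+ cells that did not (0.0187 and 0.134).

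The 12 leading genes on the tdTomato+ side all had more transcript in tdTomato+ cells after E+P. *Slco4c1*, an organic anion transporter (ENSMUSG00000040693.7, chromosome 1, 96816270 to 96872171, minus strand), had 3 reads over the 4 untreated tdTomato+ libraries and 22.8, 11.6 and 14.7 CPM in the 3 E+P ones. That is a ratio of 343, with an exact 95% interval for counting error from 117 to 1670. GFP+ cells held 1.5, 0.118 and 0.138 CPM with hormones, the last pair no higher than the range of the floors. The fitted difference of −7.33 (adjusted p = 0.00741, edgeR) depends on the prior count. *Pla2g7*, a secreted phospholipase that cleaves platelet-activating factor, was at 8.54, 17.2 and 27.4 CPM in E+P tdTomato+ cells and at most 1.01 CPM in the 11 other libraries.

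*Ramp1* (ENSMUSG00000034353.14, chromosome 1, 91179822 to 91225196, plus strand), a partner protein of the CGRP receptor, changed in opposite directions. It rose from 14.5, 7.54, 6.88 and 11.02 CPM to 36.8, 42.8 and 48.5 CPM in tdTomato+ cells and fell from 24.5, 41.2, 22.4 and 17.4 CPM to 6.75, 5.37 and 7.02 CPM in GFP+ cells. The groups did not overlap in either subset, and the difference was −4.12 (SE 0.43, adjusted p = 0.00151, edgeR). *Sema3c*, a secreted guidance cue, went from 3.84, 4.65, 5.04 and 16.6 CPM to 255, 194 and 230 CPM in tdTomato+ cells. In GFP+ cells it was at 17.4, 23.1, 18.9 and 25.4 CPM and then at 69.2, 35.4 and 45.9 CPM, so both subsets were higher with hormones and tdTomato+ cells by more (difference −3.92, SE 0.40, adjusted p = 0.00194, edgeR).

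*Slpi*, a secreted inhibitor of leukocyte proteases, went from at most 1.92 CPM to 66.5, 39.3 and 22.8 CPM in tdTomato+ cells and lay between 0.624 and 8.10 CPM in GFP+ cells. It was the 1 call among 18 antimicrobial defence genes (1.81% of all genes). DESeq2 called 6 of them, the fit with no low-count filter 4 and limma-voom 3. These settings also called more of all genes, 1271, 909 and 693. *Ccn5*, a matricellular protein, was at 54.6, 88.4 and 66.6 CPM in E+P tdTomato+ cells against 4.04 to 10.2 CPM before, and at 9.53, 4.49 and 3.53 CPM in E+P GFP+ cells against 8.94 to 20.6 CPM before. The remaining 6 genes, *Mreg*, *Mmd*, *Arhgap24* (a GTPase-activating protein for Rac), *P3h1* (a collagen prolyl hydroxylase), *Fmo1* (a flavin monooxygenase) and the casein gene *Csn1s2a*, rose in tdTomato+ cells but for *Csn1s2a*, whose rise there did not pass (adjusted p = 0.0270, edgeR). Without the mouse block *Slco4c1*, *Slpi* and *Fmo1* gave adjusted p = 0.0121, 0.0217 and 0.0143, and *Fmo1* did not pass with library size scaling or limma either (0.0102 to 0.0113). Without untreated mouse 4 the difference was −9.01 for *Pla2g7*, −5.25 for *Mmd*, −4.77 for *P3h1* and −3.80 for *Arhgap24*. Without E+P mouse 1 it was −8.67 for *Slco4c1*, −6.35 for *Slpi* and −5.59 for *Ccn5*. It was −5.02 for *Slpi* without untreated mouse 2 and −5.34 for *Mreg* without untreated mouse 3.

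**Figure D3:**
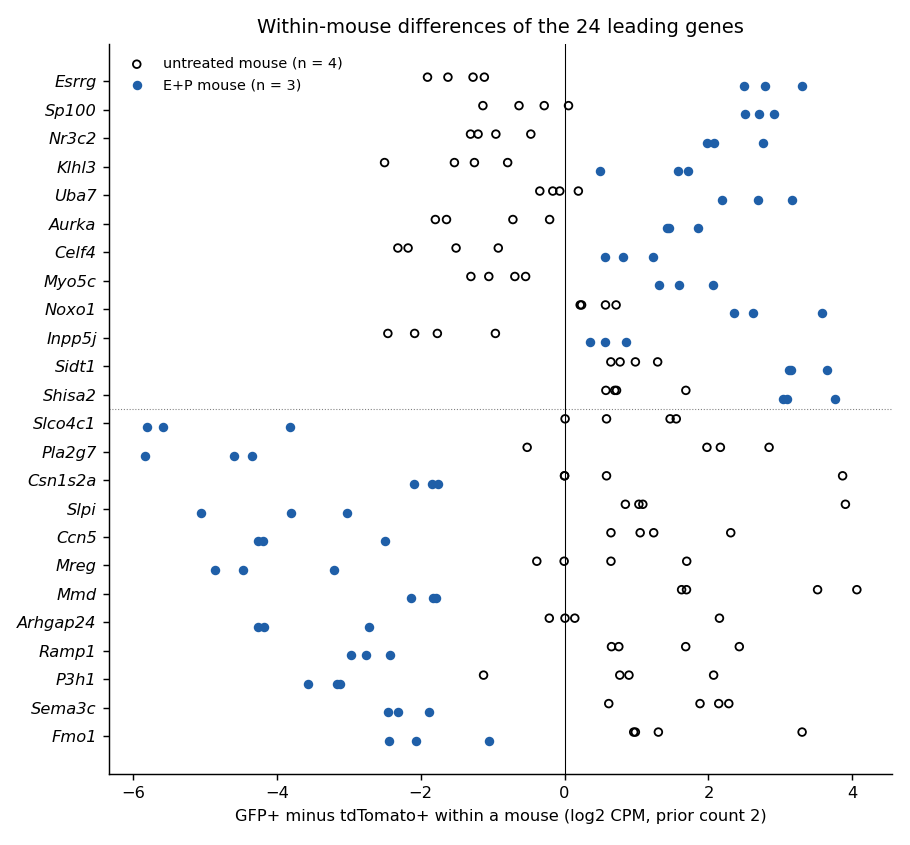
GFP+ minus tdTomato+ log2 CPM within each mouse for the 12 leading genes of each direction, open circles for 4 untreated mice and blue points for 3 E+P mice. The groups do not overlap for any of the 24 genes, which the naming rule requires, and *Esrrg* goes from −1.91 to −1.11 without hormones to 2.49 to 3.29 with them.

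For the estrogen and progesterone receptors themselves the difference of responses did not pass the threshold. *Esr1* was at 324, 431, 245 and 248 CPM in untreated and 85.5, 149.2 and 154.7 CPM in E+P tdTomato+ cells, and at 103, 53.8, 109 and 27.0 CPM and then 16.4, 14.7 and 13.5 CPM in GFP+ cells. It was lower with hormones in both subsets without overlap, and the difference of −0.84 did not pass (SE 0.57, adjusted p = 0.423, edgeR). *Pgr* was between 332 and 822 CPM in all tdTomato+ libraries and between 22.6 and 284 CPM in GFP+ cells (−1.40, adjusted p = 0.338). Among 14 tested receptors and partners, 1 was called (2.88% of all genes), *Nrip1*, a corepressor of nuclear receptors. It went from 381, 477, 583 and 311 CPM to 790, 889 and 980 CPM in tdTomato+ cells and stayed between 265 and 430 CPM in GFP+ cells (−0.97, adjusted p = 0.00866, 0.0737 with no mouse block and 0.0111 with library size scaling, edgeR).

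Of 18 tested genes listed as mediators of E+P signalling, 2 were called on the GFP+ side (1.07% of all genes). They were *Ccnd1*, which is no secreted signal and is also counted among the cell cycle genes, and *Inhbb*, a subunit of activin B and inhibin B. *Inhbb* fell in both subsets, from 270, 334, 338 and 328 CPM to 38.2, 40.6 and 30.6 CPM in tdTomato+ and from 452, 700, 430 and 573 CPM to 203, 271 and 254 CPM in GFP+ cells (difference 2.00, SE 0.20, adjusted p = 0.000962, edgeR). *Tnfsf11*, which encodes RANKL, was at 162, 131 and 139 CPM in E+P tdTomato+ cells and at 19.6, 2.13 and 1.33 CPM in E+P GFP+ cells, with at most 0.990 CPM in any untreated library. The within-mouse differences did not overlap, but the fitted difference of −3.62 had an SE of 2.44 (adjusted p = 0.439, edgeR). Limma on the within-mouse differences gave an adjusted p of 0.00777, while DESeq2 (0.0358) and limma-voom (0.39) did not pass. Nor did edgeR with library size scaling (0.437) or with no mouse block (0.547). *Wnt4* and *Areg*, an EGF receptor ligand, gave −0.87 and −0.98 (adjusted p = 0.520 and 0.412).

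In the prolactin pathway 1 of 15 genes was called (2.88% of all genes). *Jak2*, the kinase that the prolactin receptor activates, rose from 196, 263, 292 and 181 CPM to 638, 594 and 719 CPM in tdTomato+ cells and lay between 77.8 and 146 CPM in GFP+ cells (−1.27, adjusted p = 0.00524, and 0.0342 with no mouse block, edgeR). *Stat5a*, the factor downstream, rose in both subsets, by 1.63 and 1.80, with a difference of 0.21 (adjusted p = 0.548). *Prlr* gave −0.86 (adjusted p = 0.520) and *Elf5*, the alveolar transcription factor, 1.34 (adjusted p = 0.0721).

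Among 19 milk genes 2 were called on the tdTomato+ side (1.81% of all genes), of which *Csn1s2a* depended on the fit and on single mice. Without untreated mouse 2 there were 4 on that side and 2 on the GFP+ side (859 of all genes in that fit). DESeq2 called 4 on the tdTomato+ side (1271 of all genes on either side). *Csn1s2a* had 0, 0, 0 and 0.470 CPM in untreated and 85.0, 3.20 and 3.08 CPM in E+P tdTomato+ cells, and 0, 0, 0.0631 and 8.57 CPM and then 23.6, 0.649 and 0.826 CPM in GFP+ cells. E+P mouse 1 was highest of the E+P mice and untreated mouse 4 of the untreated mice in both subsets, and only 11 reads lay behind the 4 untreated tdTomato+ libraries. The difference was −6.06 (adjusted p = 0.000874, edgeR). It did not pass with no block (0.291), nor with limma on the within-mouse differences (adjusted p = 0.0641). Without untreated mouse 4 it was −3.73 (adjusted p = 0.319, edgeR), and without E+P mouse 1 it did not pass either. Its promoter is shown for the STAT letters TTCNNNGAA, in capitals, to which STAT5 can bind and which 8.3% of all promoter windows held.
Csn1s2a (chr5:87774200-87774499, plus strand): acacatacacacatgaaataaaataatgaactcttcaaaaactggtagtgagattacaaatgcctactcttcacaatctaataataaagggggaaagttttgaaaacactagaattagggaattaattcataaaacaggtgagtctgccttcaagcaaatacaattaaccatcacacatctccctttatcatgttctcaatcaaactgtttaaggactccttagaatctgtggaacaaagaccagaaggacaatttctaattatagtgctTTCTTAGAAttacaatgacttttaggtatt
The match begins 20 bases after the RefSeq start of this window and 97 bases before the GENCODE start of the gene, as the starts are 117 bases apart. *Folr1*, a folate receptor, rose from 7.10, 4.99, 7.20 and 5.60 CPM to 31.0, 48.5 and 48.8 CPM in tdTomato+ cells and stayed between 9.002 and 10.4 CPM in GFP+ cells (−2.77, SE 0.24, adjusted p = 0.000530). *Csn2* and *Csn3* gave 1.32 and 0.95 (adjusted p = 0.104 and 0.388), values in the other direction.

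Lipid genes went both ways. *Lpl*, the lipase that frees fatty acids from lipoproteins, rose from 1.40, 0.606, 1.92 and 2.82 CPM to 61.7, 17.5 and 16.9 CPM in tdTomato+ cells (−2.56, adjusted p = 0.00177, and 0.0950 with no block, edgeR). *Gpat4*, a first step of triglyceride synthesis, gave −0.83 (adjusted p = 0.00395, and 0.0278 with no block). *Elovl6*, which elongates fatty acids, fell from 14.8, 10.0, 11.8 and 18.1 CPM to 5.79, 5.23 and 4.52 CPM in tdTomato+ cells and was at 26.7 to 28.6 CPM in E+P GFP+ cells (1.74, adjusted p = 0.00363). These were 3 of 23 genes tested (2.88% of all genes), with 0 called when any of the E+P mice was left out. Of 20 cholesterol genes, 0 were called by edgeR (2.88% of all genes). An unadjusted edgeR p under 0.05 was reached by 5 of the 20, as it was by 4076 of the 16538 genes tested. DESeq2 called 1 of the 20, and 1271 of all genes.

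Among growth factor pathways, 2 of 13 EGF family genes were called on the tdTomato+ side (1.81% of all genes). *Epgn*, the ligand epigen, rose from 5.65, 5.66, 9.92 and 5.25 CPM to 32.3, 31.9 and 25.1 CPM in tdTomato+ cells (−2.52, adjusted p = 0.00498, and 0.01 with no block, edgeR). *Erbb2*, a coreceptor of the family, rose from 168.2, 166.5, 153.5 and 168.7 CPM to 282, 266 and 299 CPM and was between 92.2 and 123 CPM in GFP+ cells (−0.92, adjusted p = 0.00732, and 0.0139 with library size scaling). Of 24 Wnt genes, 2 were called on the GFP+ side (1.07% of all genes), and both fell in tdTomato+ cells. They were *Fzd7*, a Wnt receptor (1.12, adjusted p = 0.00339), and *Rnf43*, a ubiquitin ligase that removes such receptors (1.32, adjusted p = 0.00331). Of 17 Notch genes 1 was called on that side (1.07% of all genes), *Maml2*, a coactivator (1.05, adjusted p = 0.00322, and 0.0120 with no block). DESeq2 called 3 of them, as did edgeR without untreated mouse 2, where these fits called 1271 and 859 of all genes. Of 6 PDGF ligands and receptors 0 were called by edgeR (2.88% of all genes), DESeq2 or limma. An unadjusted edgeR p under 0.05 was found for 2, *Pdgfc* (0.0406) and *Pdgfra* (0.00913), as it was for 4076 of the 16538 genes tested. The differences were −1.74 for *Pdgfra* and 2.40 for *Pdgfrb*, with *Pdgfa* at −0.36, *Pdgfb* at 0.47, *Pdgfc* at −0.58 and *Pdgfd* at 1.93. The EGF, Wnt and Notch lists, like those of the receptors, the prolactin pathway and the interferon genes, had 0 calls without E+P mouse 2 and without E+P mouse 3.

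Among 27 interferon and MHC class I genes, 2 were called on the tdTomato+ side (1.81% of all genes). *B2m*, the light chain of MHC class I, was at 344, 196, 239 and 416 CPM in untreated and 3026, 2302 and 3034 CPM in E+P tdTomato+ cells, and at 229, 120, 200 and 224 CPM and then 655, 261 and 339 CPM in GFP+ cells. All 7 mice had more *B2m* in tdTomato+ cells, by more after E+P (−2.23, adjusted p = 0.00177, and 0.0210 with no block, edgeR). *Rsad2*, an antiviral enzyme, gave −2.01 (adjusted p = 0.00389, and 0.111 with no block). Its response was 0.54 in tdTomato+ and −1.49 in GFP+ cells, neither passing (adjusted p = 0.446 and 0.0771, edgeR). Of the 27 genes, 4 rose and 8 fell in tdTomato+ cells (7.63% and 6.44% of all genes), and in GFP+ cells 0 passed. The median difference of the list was 0.37, against 0.0122 over all genes, on the GFP+ side and unlike the 2 calls.

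Of 25 folding genes of the endoplasmic reticulum (ER), 2 were called on the tdTomato+ side (1.81% of all genes) and 1 without E+P mouse 2 or 3. There were 9 without untreated mouse 2 and 5 with DESeq2, fits that called 859 and 1271 of all genes. *Ern1*, the ER stress sensor IRE1α, rose from 96.4, 98.7, 176 and 92.5 CPM to 417, 315 and 314 CPM in tdTomato+ cells and lay between 44.2 and 102 CPM in GFP+ cells (−2.01, SE 0.15, adjusted p = 0.000432, and 0.0110 with no block, edgeR). *Ssr4*, a subunit of the translocon-associated complex, gave −1.71 (adjusted p = 0.00178). Single calls among other lists were *Tjp3*, a tight junction scaffold (0.86), of 19 genes tested, *Trp63*, the basal cell factor p63 (−2.94), of 12 basal markers, and the immediate early genes *Atf3* (−1.47) and *Klf2* (−3.01) of 25 tested (all genes, 2.88%). None of these 4 passed without the block (adjusted p = 0.0315, 0.0226, 0.127 and 0.0221, edgeR). *Trp63* rose from at most 2.22 CPM to 28.1, 21.2 and 26.0 CPM in tdTomato+ cells. In GFP+ cells it lay at 1.46 to 5.28 CPM and then at 6.79 to 8.56 CPM (adjusted p = 0.0514, edgeR). Of the 12 basal markers, 2 rose in tdTomato+ cells (7.63% of all genes) and 0 in GFP+ cells (3.17%). Their median difference was 0.53, on the GFP+ side, and *Krt14* and *Cnn1* gave 0.97 and 4.91 without passing. The basal sum was at 24.7, 16.9, 64.7 and 48.8 CPM in untreated and 85.9, 61.6 and 50.0 CPM in E+P tdTomato+ cells. It was higher in GFP+ than in tdTomato+ cells in 7 of 7 mice. The source of the *Trp63* reads was not tested.

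For the lysosome and the secretory pathway 2 further lists were written after their values had been seen, so that the counts describe and support nothing. Of 50 lysosomal genes, 18 were called on the tdTomato+ and 1 on the GFP+ side (all genes, 1.81% and 1.07%), with a median difference of −0.86. In tdTomato+ cells 23 rose and 3 fell (all genes, 7.63% and 6.44%), and in GFP+ cells 1 rose and 4 fell (3.17% and 2.78%). *Ctsd*, the protease cathepsin D (ENSMUSG00000007891.16, chromosome 7, 142375911 to 142388038, minus strand), rose from 97.3, 85.3, 75.5 and 59.4 CPM to 422, 465 and 375 CPM in tdTomato+ cells and was at 79.2, 80.1, 73.8 and 64.0 CPM and then at 88.1, 46.8 and 48.9 CPM in GFP+ cells. Before E+P the subsets overlapped, and after it they were far apart (−2.76, SE 0.23, adjusted p = 0.000486, edgeR). *Grn*, the progranulin precursor, *Npc2*, a cholesterol carrier, and *Gm2a*, a glycolipid activator protein, gave −2.41, −2.18 and −2.22, and *Gm2a* did not pass without the block (adjusted p = 0.011, edgeR). *Arsb*, a sulfatase, was the exception, falling in tdTomato+ cells (1.49, adjusted p = 0.00311).

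Of 40 genes of the translocon, N-glycosylation and ER quality control, 18 were called on the tdTomato+ side and 0 on the GFP+ side (all genes, 1.81% and 1.07%), with a median of −0.79. In tdTomato+ cells 27 rose (7.63% of all genes), and in GFP+ cells 0 passed in either direction. *Os9*, a lectin that sorts misfolded glycoproteins, rose from 183, 176, 162 and 180 CPM to 547, 648 and 803 CPM in tdTomato+ cells, while GFP+ cells held between 132 and 186 CPM in all 7 mice (−2.12, SE 0.19, adjusted p = 0.000582, edgeR). *Rpn2* and *Ddost*, subunits of the oligosaccharyltransferase, gave −1.30 and −1.45. Summed over the list, tdTomato+ cells went from 3046, 3773, 3690 and 2897 CPM to 6166, 6817 and 7223 CPM, and GFP+ cells from 2768, 2786, 3099 and 2688 CPM to 3123, 2832 and 2798 CPM. The lysosomal calls on the tdTomato+ side were 12, 3 and 3 without E+P mouse 1, 2 and 3 and 6, 20, 11 and 16 without untreated mouse 1, 2, 3 and 4. Those of the ER list were 15, 1 and 1, and 4, 20, 12 and 9. The E+P tdTomato+ libraries are also those with the lowest TMM factors, and with library size scaling the counts were 15 and 13.

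**Figure D4:**
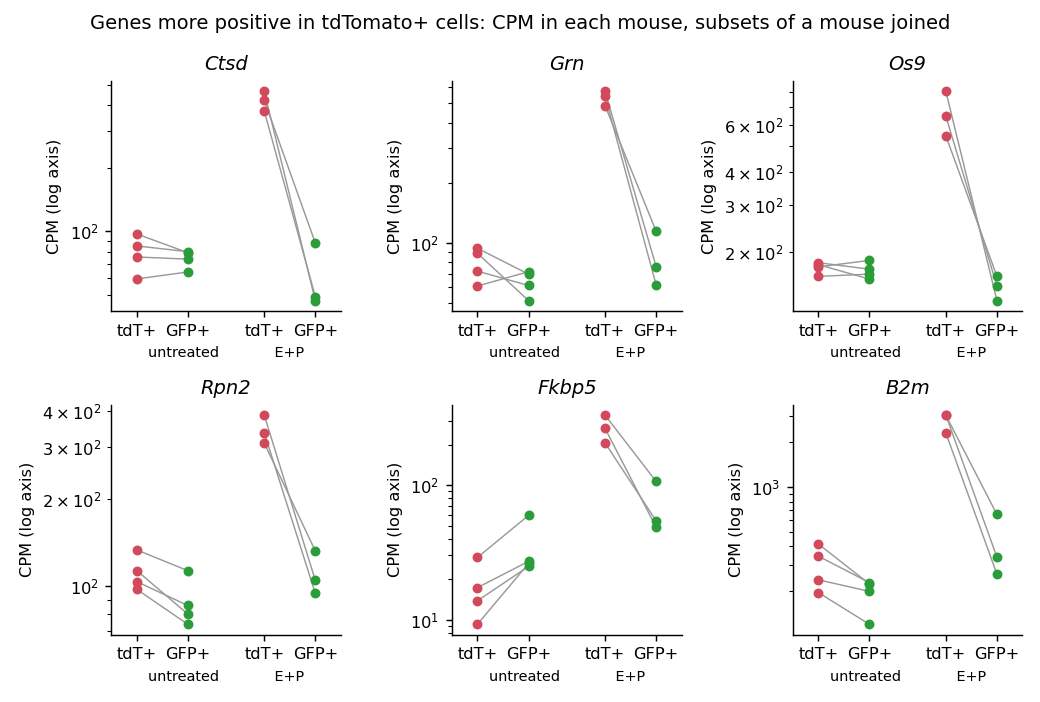
CPM (log axis) of 6 genes in every library, tdTomato+ in red and GFP+ in green, with the subsets of a mouse joined by a line; 4 untreated mice on the left and 3 E+P mice on the right of each panel. Before E+P *Ctsd* and *Os9* overlap between subsets, and after it the 3 tdTomato+ libraries lie at 375 to 465 CPM and 547 to 803 CPM.

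The genes that the study follows in luminal cells did not pass the threshold with edgeR on all 7 mice. DESeq2 called *Elf5* and *Itgb1* (adjusted p = 0.00328 and 0.00338). Over the edgeR fits that omit a mouse, the lowest adjusted p of *Elf5* was 0.00417, which passes. Besides the receptors, the PDGF ligands and *Elf5*, the genes followed were *Kit* (0.95, adjusted p = 0.374), *Aldh1a3* (0.14, 0.917), *Notch1* (0.03, 0.959), *Krt8* (−0.54, 0.0831), *Krt18* (−0.32, 0.316), *Krt19* (0.04, 0.954), *Krt14* (0.97, 0.216), *Epcam* (−0.57, 0.0375), *Itga6* (0.04, 0.918), *Ly6a* (−1.93, 0.190) and *Itgb1* (−0.66, 0.0212), all from edgeR. *Kit* was higher in GFP+ cells in 7 of 7 mice, at 707 to 1281 CPM against 41.4 to 308 CPM.

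**Figure D5:**
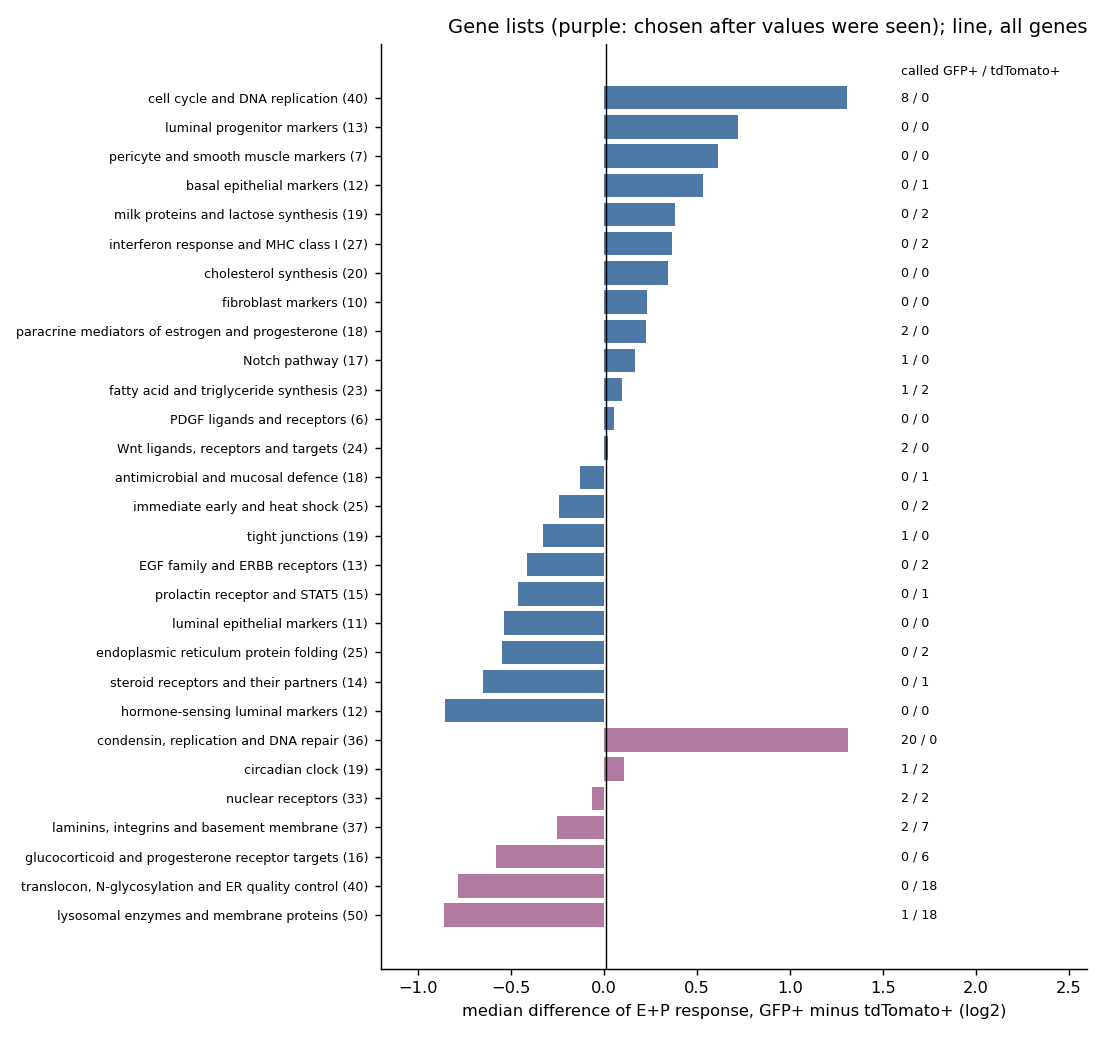
Median difference of the E+P response (GFP+ minus tdTomato+, log2) over the tested genes of each list, whose number is in brackets, with the number of genes called on the GFP+ and tdTomato+ side at the right; lists with under 5 tested genes are left out. The cell cycle list has the highest median of the blue lists, 1.31. Blue lists were written with earlier results of these data known, and purple lists after values were seen. The black line marks all genes, 0.0122.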

How the data were processed

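Luminal GFP+ and tdTomato+ cells (CD49f low, EpCAM+) were sorted from the same mice and their RNA sequenced with a stranded kit. RNA integrity in the labels is given only as a range from 1 to 10, and its part in the results was not tested. The authors deposited raw read counts per gene and library, which their processing notes credit to STAR 2.5.2a and GRCm38.p5. Whether counting used the strand is not given in the sources used here, so overlapping and antisense genes are uncertain. No per-sample column was left out.

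Symbols and coordinates came from GENCODE M21, which held 50376 of the 50600 gene identifiers (45737 with the same version). Promoter windows came from RefSeq GRCm38.p6. Counts were filtered with filterByExpr, scaled by TMM and tested with the quasi-likelihood test of edgeR 4.0.16 (R 4.3.3, limma 3.58.1) at a Benjamini-Hochberg adjusted p under 0.01. The model of the interaction had mouse as a block, and the E+P effect within a subset was fitted on the 4 groups with no block. The labels give the GFP+ and tdTomato+ libraries of a mouse the same mouse number, and the deviations of same-mouse libraries from their group means correlated at 0.193 on average (0.0563 to 0.368), against −0.0316 for other pairs. Deviations cancel out within a group, so positive same-mouse values make other pairs negative, and the latter value is no independent comparison. Log2 CPM used a prior count of 2. Exact intervals and floors (3 counts, 95%) cover counting error only.

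Named genes were the 12 with the largest difference in each direction among called genes with a group mean of at least 10 CPM and within-mouse differences that did not overlap, the called members of each list, the genes with opposite called responses and the genes the study follows, some of which are not reported here. The genes, lists and members were chosen with earlier results of these data known. A further 7 lists and the E2F and CCAAT letters were chosen after the values here had been seen. Alternatives were DESeq2 1.42.0 size factors and Wald test, library size scaling, no filter, limma-voom, limma on within-mouse differences, no block, an adjusted p under 0.05, a fit per subset on its own libraries, and fits that omit a mouse in turn. On simulated data with 200 changed genes among the 16538, 197 of which were tested, the interaction test called 8 of 99 genes changed by 2-fold (8.08%) and 55 of 98 changed by 4-fold (56.1%), with 2 unchanged genes called. Exact tests used scipy 1.17.1.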

Additional observations from a re-analysis of the deposited data

Results flagged for a closer look

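The E+P response differed between subsets, by the interaction test, for 477 genes. Of these, 18 passed the threshold in both subsets with opposite signs. On the tdTomato+ side the differences (log2) were −4.12 for *Ramp1*, −3.61 for *Abhd11os*, −2.53 for *Ppm1j*, −2.34 for *Gsn*, an actin-severing protein, −2.04 for *Eps8l1* and −1.97 for *Bcam*, a laminin receptor. The others of that side were *Depdc7* (−1.80), *Itm2b* (−1.76), *Cyb5a* (−1.72), *Gm49342* (−1.56), *Fndc3b* (−1.45), *Atp8b2* (−1.34) and *Tgoln1* (−1.06). With library size scaling *Ppm1j* and *Gm49342* did not pass (adjusted p = 0.0108 and 0.0114, edgeR). On the GFP+ side they included *Mcm6* (2.17), *Cntln* (2.03), *Fancm* (1.47) and *Cep162* (1.25). *Gsn* went from 339, 384, 349 and 332 CPM to 744.8, 1081 and 1159 CPM in tdTomato+ cells and from 228, 210, 196 and 194 CPM to 154, 94.5 and 102 CPM in GFP+ cells, with no overlap in either.

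In 16 of 195 groups of 4 untreated values, 1 mouse stood far from the other 3, where chance flags about 1 in 20. Untreated mouse 2 had within-mouse differences (GFP+ minus tdTomato+, log2) of 3.9 for *Slpi* (others 0.845 to 1.09), 3.3 for *Fmo1* (0.961 to 1.3), 4.06 for *Csn3* (1.8 to 2.15), 3.94 for *Kit* (1.71 to 2.01) and 1.09 for *Rad54l* (0.232 to 0.299). Untreated mouse 3 had 1.69 for *Shisa2* (0.574 to 0.723), 0.35 for *Tsc22d3* (−0.944 to −0.74) and 0.677 for *Depdc7* (1.32 to 1.39). Untreated mouse 4 had 3.87 for *Csn1s2a* (0 to 0.583), 2.15 for *Arhgap24* (−0.212 to 0.142) and 0.602 for *Cyb5a* (−0.112 to −0.0218). Summed markers stood apart in untreated mouse 3 for progenitor genes in GFP+ cells (4841 CPM), fibroblast genes in tdTomato+ cells (99.1 CPM) and skeletal muscle genes in tdTomato+ cells (57.8 CPM). They did so in untreated mouse 4 for endothelial genes in tdTomato+ cells (148.96 CPM) and skeletal muscle genes in GFP+ cells (44.1 CPM).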

How the results depend on the processing

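Of the counts of genes past the threshold, the interaction gave 909 with no low-count filter, 1271 with the DESeq2 Wald test, 1454 at an adjusted p under 0.05, and 34 to 859 with a mouse left out. E+P in GFP+ cells gave 2035 with DESeq2, 2475 at 0.05, 560 when only the 2 groups compared were fitted, and 169 to 962 with a mouse left out. E+P in tdTomato+ cells gave 3558, 4444 and 1140 to 2144 for the same settings but the third. Library size scaling moved the median of all genes to 0.1288 and turned the tdTomato+ split from 54.2% to 25.2% higher. With no replicate block the interaction gave 376 calls, 286 of them shared, and 53 of the 92 called genes followed singly stayed called. Genes that were not called changed sign when a mouse was left out, *Notch1* from −0.13 to 0.21, *Aldh1a3* from −0.19 to 0.68, *Krt19* from −0.24 to 0.21 and *Itga6* from −0.051 to 0.17. The cause was not tested. With 3 and 4 mice, a 2-fold difference of responses was rarely called in simulated data.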

Other observations

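These lists were written after the called genes had been seen, so their counts are descriptions that support nothing. Of 36 condensin, replication and DNA repair genes, 20 were called on the GFP+ side and 0 on the other (all genes, 1.07% and 1.81%, median of the list 1.31), though 1 was without E+P mouse 2 and 3 without E+P mouse 3. *Smc4*, a condensin core subunit, was at 64.0, 60.2, 92.9 and 78.8 CPM in untreated and 252, 229 and 227 CPM in E+P GFP+ cells, and between 60.1 and 76.9 CPM in all tdTomato+ libraries (1.56, SE 0.15, adjusted p = 0.00065, edgeR).

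Of 16 targets shared by the glucocorticoid and progesterone receptors, 6 were called on the tdTomato+ side (1.81% of all genes), and 0 with no mouse block. Without E+P mouse 2, and likewise without E+P mouse 3, there were 2. *Fkbp5*, a chaperone of these receptors, was at 13.8, 9.23, 17.3 and 29.0 CPM and then at 331, 206 and 263 CPM in tdTomato+ cells, and at 24.8, 26.1, 27.1 and 59.5 CPM and then at 106, 54.2 and 48.6 CPM in GFP+ cells (−3.00, SE 0.24, adjusted p = 0.000432, and 0.0142 with no block, edgeR). The GFP+ groups overlapped and the tdTomato+ groups did not. *Sgk1*, a kinase that mineralocorticoid and glucocorticoid hormones induce, gave −1.63 (adjusted p = 0.00215, and 0.0101 with no block, edgeR).

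Of 37 laminin, integrin and basement membrane genes, 7 were called on the tdTomato+ and 2 on the GFP+ side (all genes, 1.81% and 1.07%). The 7 became 4, 1 and 1 without E+P mouse 1, 2 and 3 and 2 without untreated mouse 1. *Lamc1*, a laminin chain, gave −1.34 (adjusted p = 0.00924, edgeR, and 0.0176 with library size scaling), and *Hspg2*, the basement membrane proteoglycan perlecan, gave 1.69 (adjusted p = 0.00197, and 0.0117 with no block). Besides *Esrrg* and *Nr3c2*, 2 of 33 nuclear receptors were called (2.88% of all genes), *Vdr* (−1.63) and *Nr1d1* (−1.14). Of 19 clock genes 3 were called (2.88% of all genes), *Per3* (2.15), *Nfil3* (−1.76) and *Nr1d1*. The clock list had 0 calls without E+P mouse 2 and 1 without E+P mouse 3. DESeq2 called 2 clock genes on the GFP+ and 4 on the tdTomato+ side, and the fit with no low-count filter 3 and 4. These fits called 1271 and 909 of all genes. Without E+P mouse 2 or 3, the nuclear receptor list had 2 calls on the GFP+ and 0 on the tdTomato+ side. With no mouse block *Vdr*, *Nr1d1* and *Nfil3* did not pass (adjusted p = 0.0263, 0.394 and 0.0941, edgeR), nor did *Nr1d1* with library size scaling (0.0138). Times of collection were not used here.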
